A study of Homo sapiens with 2 samples.

Results

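FOXA1, FOXA2, FOXA3, HNF4A, CEBPA, CEBPB, ONECUT1 and ONECUT2 encode transcription factors that are enriched in the liver. They were taken by symbol from the deposited expression table, in which each of the 8 had 1 row among 50868 genes. Messenger RNA was sequenced from 1 sorafenib-resistant culture (genotype label sorafenib resistance, treatment label sorafenib) and 1 parental culture (genotype label WT, treatment label none). Both cultures carry the label HepG2, a hepatoblastoma-derived human line often used as a stand-in for hepatocytes, and both were kept in DMEM with fetal bovine serum. Sorafenib, a drug against liver cancer, blocks RAF and growth factor receptor kinases. The resistant cells were selected from 2.5 µM in steps of 0.5 µM up to 7 µM sorafenib, and the labels do not say whether they are a pool or a single clone, or whether the drug was present at harvest. With 1 library a group, neither an SD nor a test between conditions could be had, and the intervals given reflect counting error alone.

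In the hepatocyte these factors form a network. FOXA proteins are pioneer factors that open chromatin for other regulators. HNF4A is the nuclear receptor that drives most genes of the differentiated hepatocyte. CEBPA sustains metabolic genes of the resting liver, CEBPB is induced in inflammation and regeneration, and the cut-homeodomain factors ONECUT1 (HNF6) and ONECUT2 act in the development of liver, bile duct and pancreas. HepG2 is known for expressing HNF4A and the FOXA factors. FOXA1, CEBPB and ONECUT2 are also active in other epithelia and tumours, so their messages alone do not mark a hepatocyte.

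The HNF4A gene has 2 promoters, a distal one (P2) and a proximal one (P1) that is the main start in adult liver. Both are shown because HNF4A had almost no reads. Beside them are the start of ONECUT2, the member with the most reads, and the start region of FOXA1. Among the members not near 0 reads, FOXA1 had the largest difference. The sequences are the RefSeq reference of build GRCh38.p14, given 5′ to 3′ on the gene's strand. They are 250 bases long and end just before the annotated start, except for FOXA1, where 151 bases remain outside exons. RefSeq starts differ from the ends of some of the gene spans given with the results. Capitals mark letters of the motifs described afterwards.
HNF4A P2, chr20:44355449-44355698, plus strand: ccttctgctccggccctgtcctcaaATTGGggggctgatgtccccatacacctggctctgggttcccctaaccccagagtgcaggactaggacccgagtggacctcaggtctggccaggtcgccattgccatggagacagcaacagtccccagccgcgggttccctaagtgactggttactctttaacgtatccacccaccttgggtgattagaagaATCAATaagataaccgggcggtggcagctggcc
HNF4A P1, chr20:44400989-44401238, plus strand: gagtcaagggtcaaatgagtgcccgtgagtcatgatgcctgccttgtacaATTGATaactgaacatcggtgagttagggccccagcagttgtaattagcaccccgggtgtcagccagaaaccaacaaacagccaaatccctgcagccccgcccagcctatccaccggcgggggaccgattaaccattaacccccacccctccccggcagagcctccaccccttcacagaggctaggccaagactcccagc
ONECUT2, chr18:57435124-57435373, plus strand: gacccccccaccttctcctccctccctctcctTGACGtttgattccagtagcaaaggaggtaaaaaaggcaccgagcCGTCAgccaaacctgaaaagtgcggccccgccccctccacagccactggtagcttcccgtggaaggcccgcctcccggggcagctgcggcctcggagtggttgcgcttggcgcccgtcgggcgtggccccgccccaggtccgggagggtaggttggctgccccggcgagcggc
FOXA1, chr14:37595349-37595499, minus strand: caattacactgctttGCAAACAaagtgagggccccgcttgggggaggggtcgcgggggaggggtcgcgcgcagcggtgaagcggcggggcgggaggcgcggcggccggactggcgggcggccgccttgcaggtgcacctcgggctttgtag

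The P1 window held the ONECUT core ATTGAT at position -200 from the start, and P2 held it on the minus strand at -33. Of 35116 RefSeq promoter windows, 5.58% held this core in the same 250 bases. The FOXA1 window held the forkhead variant TGTTTGC on the minus strand at -235 (3.23% of windows). In the ONECUT2 window the cyclic AMP element core TGACG occurred at -218 and, on the minus strand, at -173 (21.2%). P2 held a CCAAT box on the minus strand at -225 (32% of windows). A match describes the letters only.

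The counts of the resistant library summed to 16811907 and those of the parental library to 18067146. Levels in CPM are counts relative to each library's total after TMM scaling. Of all 50868 genes, 21742 had a count in the resistant and 21623 in the parental library, so a count of 0 was common. A gene was taken as measured when the larger of its 2 CPM was at least 1, which held for 14686 genes. The size rule was a log2 ratio, resistant over parental with 1 added to each CPM, of at least 1 or at most -1. The median log2 ratio of measured genes was -0.0018. A count of 0 allows up to 0.179 CPM in the resistant library and 0.166 CPM in the parental library, the worth of 3 counts.

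The 8 members fell into 4 measured genes, FOXA1, CEBPA, CEBPB and ONECUT2, and 4 genes near 0, FOXA2, FOXA3, HNF4A and ONECUT1. All 4 in the second set had at most 5 counts in either library, and together they had 6 counts in the resistant and 9 in the parental library. Of the 4 measured members 1, FOXA1, was lower by the size rule in the resistant library and 0 were higher. The 4 genes near 0 could not pass the rule, since 1 is added to each CPM. Among all measured genes 0.994% were lower and 1.31% higher by the same rule, 2.3% in either direction.

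**Figure D1:**
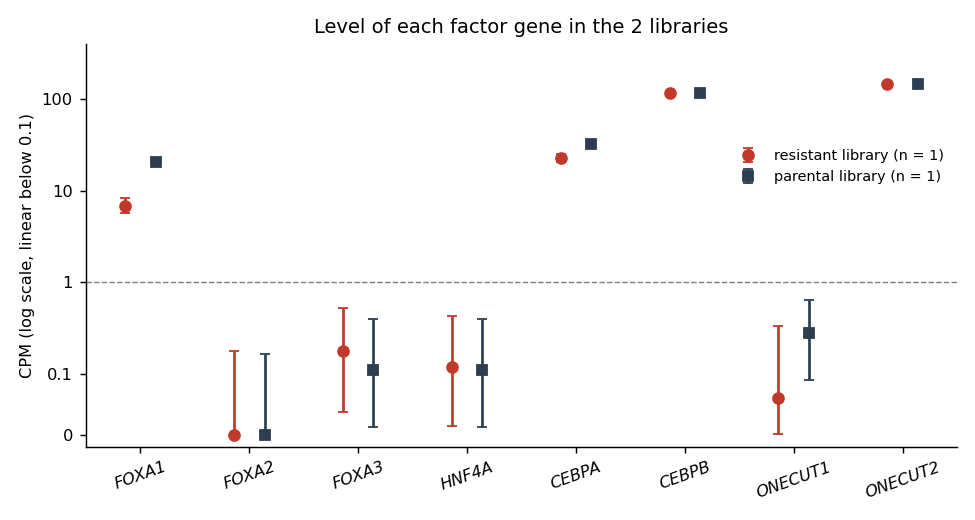
Level of the 8 factor genes in the resistant (circles) and parental (squares) library, in CPM on a log scale that is linear below 0.1, with exact 95% Poisson intervals for counting error (for FOXA2, at 0 counts, the worth of 3 counts). The dashed line is 1 CPM, which FOXA1, CEBPA, CEBPB and ONECUT2 pass and the other members do not.

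HNF4A (ENSG00000101076; chromosome 20, 44355700 to 44434596, plus strand, GRCh38) had 2 counts in the resistant and 2 in the parental library. These correspond to 0.119 CPM (exact 95% Poisson interval 0.0144 to 0.431) and 0.110 CPM (0.0134 to 0.399). The libraries did not differ beyond counting error, with a resistant to parental ratio of 1.08 (exact Clopper-Pearson 95% interval 0.0784 to 14.9). HNF4A-AS1, the antisense gene within the HNF4A span, had 0 counts in both. Of the 9 genes within 50 kb of HNF4A, 6 had 0 counts in both libraries, but FITM2 and TTPAL had 401 and 121 counts in the resistant and 461 and 104 in the parental library. Genes on both sides of HNF4A thus had reads in both libraries.

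HNF4G, the HNF4A paralogue of gut and kidney, was also low, with 7 counts in the resistant and 9 in the parental library.

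FOXA1 (ENSG00000129514; chromosome 14, 37589984 to 37596059, minus strand) was the one FOXA gene measured. It had 115 counts in the resistant and 376 in the parental library, or 6.86 CPM (5.66 to 8.23) and 20.8 CPM (18.7 to 22.96). The resistant library was the low one, and the intervals cover counting error only. FOXA1 was 3.02-fold lower in the resistant library (2.45 to 3.76), a log2 ratio of -1.47. Only 44 of the 14686 measured genes, or 0.2996%, had a log2 ratio as low or lower. Of the 4390 genes whose larger CPM lay between 10 and 40, 20 did, and 1.18% were lower by the size rule. In the authors' deposited table FOXA1 has a log2 fold change of -1.61 and is the one member called, as DOWN. That table gives CEBPA -0.50, CEBPB -0.03 and ONECUT2 -0.02, and calls none of them. It also gives ONECUT1 -2.22, larger in size than FOXA1, with FOXA3 0.69 and HNF4A 0.10. These 3 genes have at most 5 counts in either library and are not called. Summed with TTC6, whose exons overlap those of FOXA1 by 16 bases on the opposite strand, the log2 ratio was -1.28. TTC6 alone had 25 counts in the resistant and 18 in the parental library, and MIPOL1, a neighbour on the other side, had 254 and 397. Neither was past the size rule.

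**Figure D2:**
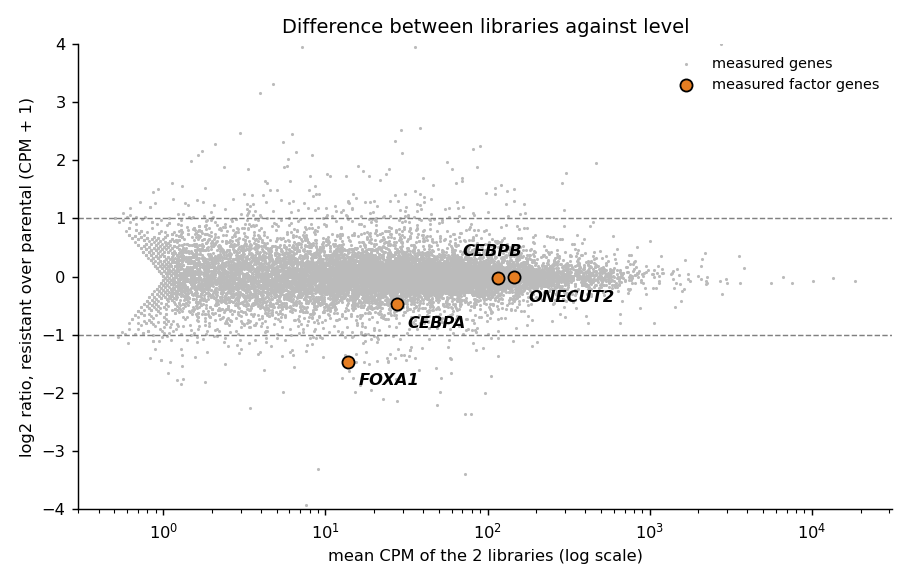
Log2 ratio of resistant over parental CPM plus 1 (vertical axis) against the mean CPM of the libraries (log axis) for measured genes (grey), with the 4 measured factor genes in orange and the size rule as dashed lines. FOXA1 lies below the lower line at -1.47, CEBPA at -0.48, and CEBPB and ONECUT2 close to 0. For scale, 7 genes outside the range from -4 to 4 are not drawn.

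The other FOXA genes were close to the floor of detection. FOXA2 (ENSG00000125798; chromosome 20, 22581005 to 22585455, minus strand), which specifies endoderm and is active in liver and pancreas, had 0 counts in both libraries. LINC00261, the non-coding gene next to it, had 0 counts in both as well, as had LNCNEF on its other side. FOXA3 (ENSG00000170608; chromosome 19, 45863989 to 45873797, plus strand), the FOXA factor of the mature liver, had 3 counts in the resistant and 2 in the parental library. SYMPK and IRF2BP1 flank FOXA3 and were abundant, with 1982 and 690 counts in the resistant and 2188 and 840 in the parental library.

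Among the 49 protein-coding forkhead genes of the table, a family chosen for comparison after the members' values were seen, 25 were measured and 13 had 0 counts in both libraries. FOXA1 had the lowest log2 ratio of the 25 and was the 1 gene lower by the size rule. FOXO6 came next at -0.60. FOXM1, which activates mitotic genes, was the 1 gene higher, with 3904 counts in the resistant and 1957 in the parental library. The median of the 25 was -0.027, against -0.0018 over all measured genes. By FPKM, the authors' count per gene length and library depth, FOXA1 ranked 22 of 25 in the resistant and 20 of 25 in the parental library. These ranks depend on the length constant of each gene, which for FOXA1 (6.36 kb) exceeds the gene span (6076 bases). FOXF2 and FOXC1, forkhead factors of mesenchyme, stood far above it. FOXF2 had 31.1 FPKM in the resistant and 35.1 FPKM in the parental library, and FOXC1 had 26.5 and 26.1 FPKM.

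**Figure D3:**
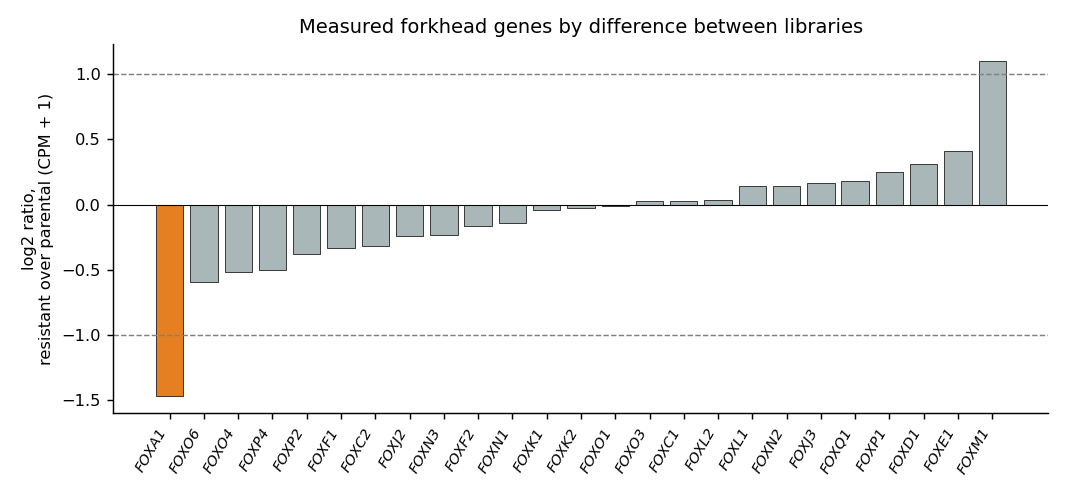
Log2 ratio of resistant over parental CPM plus 1 for the 25 measured forkhead genes, ordered from lowest to highest, with the size rule as dashed lines. FOXA1 (orange) at -1.47 and FOXM1 at 1.10 are past the lines, and the other 23 are not.

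CEBPB (ENSG00000172216; chromosome 20, 50190734 to 50192689, plus strand), the C/EBP factor of inflammation and regeneration, was the most abundant member per gene length. It had 1943 counts in the resistant and 2132 in the parental library, or 59.1 FPKM and 60.3 FPKM. Of measured genes, 97.1% had a lower FPKM in the resistant and 97.3% in the parental library. The ratio was 0.985 (0.926 to 1.05), and the interval holds 1. CEBPB-AS1 shares 231 exon bases with CEBPB on the opposite strand and had 40 counts in the resistant and 57 in the parental library, and summed with it the log2 ratio of CEBPB was -0.03. Gene counts do not separate the long activating and the short inhibitory proteins that are translated from the same CEBPB message.

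CEBPA (ENSG00000245848; chromosome 19, 33299934 to 33302564, minus strand), the C/EBP factor of the differentiated hepatocyte and of fat, had 383 counts in the resistant and 584 in the parental library. These correspond to 22.8 CPM (20.6 to 25.3) and 32.2 CPM (29.7 to 34.95), so the resistant library was lower. The intervals cover counting error only, not differences between cultures. The ratio was 0.709 (0.622 to 0.808) and the log2 ratio -0.48, within the size rule. A log2 ratio as low or lower was found for 5.82% of measured genes. CEBPB stood at 6.82 times the FPKM of CEBPA in the resistant library and at 4.91 times in the parental library. CEBPA-DT, the divergent transcript at the CEBPA start, and the antisense genes AC008738.3 and AC008738.5 had 0 counts in both libraries. They are among the 5 of 6 genes within 50 kb that had none.

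By deposited FPKM, which depends on the length constant of each gene, the other C/EBP genes ranged from 0 to values between CEBPA and CEBPB. CEBPG, a partner that dimerizes with other C/EBP and ATF4 proteins, had 34.9 FPKM in the resistant and 36.7 FPKM in the parental library. CEBPD, an acute-phase factor, had 9.89 and 9.78 FPKM. CEBPE, the granulocyte factor, had 0 counts in both. DDIT3 (CHOP), which forms inactive dimers with C/EBP proteins and is induced by stress, had 542 counts in the resistant and 1075 in the parental library. Its ratio was 0.545 (0.491 to 0.605), the lowest of the family, and its log2 ratio of -0.86 was within the size rule. Summed over CEBPA, CEBPB, CEBPD and CEBPG the level was 112.6 FPKM in the resistant and 119 FPKM in the parental library.

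ONECUT2 (ENSG00000119547; chromosome 18, 57435685 to 57491297, plus strand) had 2448 counts in the resistant and 2661 in the parental library, the most of any member. The ratio was 0.994 (0.941 to 1.05), and the interval holds 1. Its long message (16.6 kb by the constant behind the deposited FPKM, against 1.96 kb for CEBPB) puts it at 8.79 FPKM in the resistant and 8.90 FPKM in the parental library. ONECUT1 (ENSG00000169856; chromosome 15, 52756989 to 52791078, minus strand), the paralogue that is the main ONECUT factor of adult hepatocytes, had 1 count in the resistant and 5 in the parental library. Its ratio of 0.216 (0.0046 to 1.93) is not distinguishable from 1 at this depth. ONECUT3 had 0 counts in both libraries.

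By FPKM the order of the measured members was CEBPB, ONECUT2, CEBPA and FOXA1 in the resistant library. CEBPA at 8.66 FPKM (7.81 to 9.57) and ONECUT2 at 8.79 FPKM (8.45 to 9.15) had overlapping counting intervals there. Such intervals leave out any error in the length constants, 2.63 kb for CEBPA and 16.6 kb for ONECUT2. In the parental library the order was CEBPB, CEBPA, ONECUT2 and FOXA1, and CEBPA at 12.3 FPKM (11.3 to 13.3) lay above ONECUT2 at 8.90 FPKM (8.56 to 9.24). FOXA1 was last in both, at 1.08 FPKM (0.889 to 1.29) in the resistant and 3.27 FPKM (2.95 to 3.62) in the parental library. CEBPB stood at 54.9 times the FPKM of FOXA1 in the resistant and 18.4 times in the parental library. The length constant behind the FPKM is 6.36 kb for FOXA1, more than its gene span of 6076 bases. For CEBPB it is 1.96 kb, the same as its span. Orders and multiples between genes therefore depend on these constants and do not give relative numbers of messages. HNF4A had 0.00797 FPKM in the resistant and 0.00741 FPKM in the parental library, and FOXA3 and ONECUT1 were also under 0.1 FPKM in both.

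**Figure D4:**
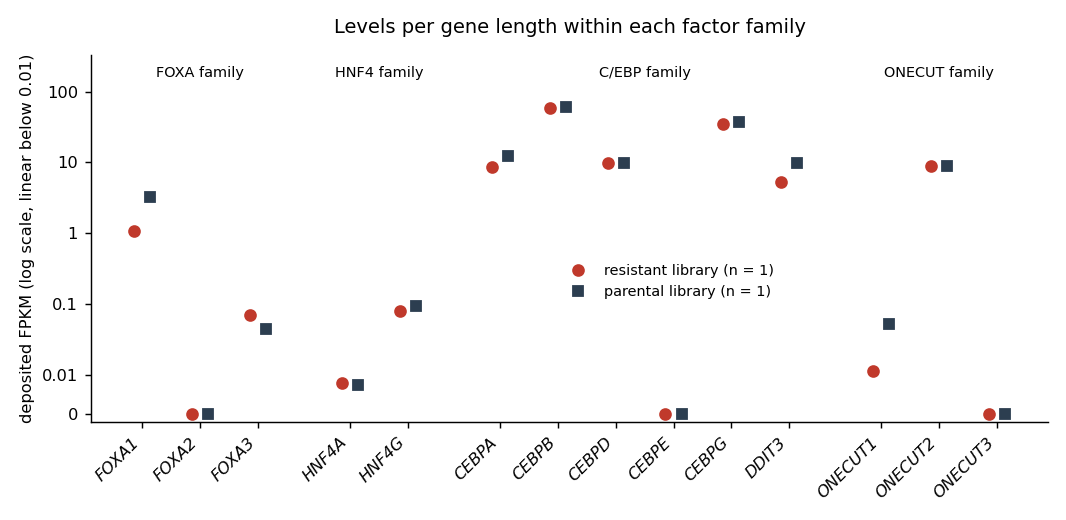
Deposited FPKM (log scale, linear below 0.01) of the members and their relatives by family, with the resistant library as circles and the parental library as squares. In the FOXA and ONECUT families 1 gene is well above the others, FOXA1 and ONECUT2, and in the HNF4 family none reaches 0.1. In the C/EBP family CEBPB and CEBPG are highest by this measure. The order within a family depends on the length constant of each gene.

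The start regions of members with many and with few reads overlapped in their CpG content. Of the 8 members, 7 had entries among the RefSeq promoters, 9 windows in all. In the 250 bases before the start, CpG pairs numbered 26 for FOXA1, 41 for CEBPA, 20 for ONECUT2, and 25 and 38 for the annotated starts of CEBPB. Among genes near 0 counts they numbered 37 for ONECUT1, 28 for FOXA3 and 8 for each HNF4A window. The median of all 35116 windows was 11. The 2 HNF4A windows were therefore the only ones of the 9 below that median, and ONECUT1 with 1 and 5 counts had more CpG pairs than ONECUT2. The other motifs searched were TGTTTAC for FOXA (2.98% of windows), TTGCNNAA for C/EBP (9.05%) and CAAAGTCCA for HNF4 (0.325%). None of the 9 windows held any of these. TATAAA (10.7% of windows) was found at -30 for FOXA3 and CEBPA and at -29 for 1 CEBPB start. The same CEBPB start also had TGACG at -57 and a CCAAT box at -245, and ONECUT1 had a CCAAT box at -220.

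Liver genes of the HNF4A network, those that HNF4A and its partners are known to activate, had few reads. Of 25 such genes, 19 had 0 counts in both libraries and none was measured. Together they had 16 counts in the resistant and 20 in the parental library, of which CYP3A4, a drug-metabolizing enzyme gene, had 7 and 9. Among 20 hepatocyte markers 13 had 0 counts in both, including the albumin gene ALB, the alpha-fetoprotein gene AFP, APOA1, APOB, TTR and SERPINA1. For scale, 21742 of all 50868 genes had a count in the resistant and 21623 in the parental library. Numbers of genes at 0 counts, here and in the lists that follow, are to be read beside that background. It is a rough guide only, since it takes each library alone and includes non-coding genes and pseudogenes. The list summed to 72 counts in the resistant and 84 in the parental library, and VTN, the vitronectin gene, was the 1 measured, with 51 counts in the resistant and 59 in the parental library. The near absence of HNF4A, FOXA2, FOXA3 and of these genes goes against the HepG2 label in both libraries, whereas FOXA1, CEBPA, CEBPB and ONECUT2 were measured and CPS1, a urea cycle gene of the liver, was abundant at 209 FPKM in the resistant and 257 FPKM in the parental library. The names resistant and parental stand for the libraries so labelled. Which cells the libraries hold was not tested.

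Of 12 liver genes known as FOXA targets, 8 had 0 counts in both libraries and 3 were measured. PCK1, the gluconeogenic carboxykinase gene, was lower by the size rule, with 13 counts in the resistant and 73 in the parental library (0.193-fold, 0.0979 to 0.350). IGFBP1, an IGF-binding protein gene, was higher by it with 19 counts in the resistant and 1 in the parental library, a ratio of 20.5 (3.26 to 853) that rests on that 1 count. With 1 added to the deposited FPKM in place of CPM, PCK1 (-0.33) and IGFBP1 (0.33) are within the size rule. The third was CPS1, which encodes the entry enzyme of the urea cycle and is also a C/EBP target, and it had 41907 counts in the resistant and 55481 in the parental library, within the size rule. Of 7 ONECUT targets 5 had 0 counts in both libraries and none was measured.

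C/EBP targets of liver and fat had 4 of 11 members measured, and PCK1 was the 1 past the size rule. PPARG, the nuclear receptor of fat cells, had 969 counts in the resistant and 1353 in the parental library. C/EBP targets of inflammation and the acute phase had 5 of 14 measured, none past the rule, with a median log2 ratio of 0.28. IL6 had 18 counts in the resistant and 9 in the parental library, PTGS2, the inducible cyclooxygenase gene, had 133 and 193, and C3, the complement gene, had 655 and 581. CRP, HP, ORM1 and ORM2, acute-phase genes of the hepatocyte, had 0 counts in both.

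Partners, regulators and co-regulators were measured with 1 exception. All 17 partners and regulators of C/EBP proteins were measured, none past the size rule, with a median log2 ratio of -0.037. ATF4, the stress factor that pairs with CEBPG, had 98.2 FPKM in the resistant and 98.6 FPKM in the parental library. TRIB2, an adaptor that directs CEBPA protein to degradation, had 38 counts in the resistant and 19 in the parental library, a log2 ratio of 0.67. Of 15 co-regulators of FOXA and HNF4A 14 were measured, between log2 ratios of -0.20 (PPARGC1A) and 0.19 (TLE1), and NR0B2, itself an HNF4A target, had 0 counts in both. KDM1A, a histone demethylase gene, was the most abundant at 60.6 FPKM in the resistant and 67.6 FPKM in the parental library, before the Mediator gene MED1 at 15.5 and 14.6 FPKM.

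Among 22 other liver-enriched transcription factors 13 were measured, none past the size rule, with a median log2 ratio of 0.09. The nuclear receptors NR1H4, NR1I2 and NR1I3 and the homeobox factor PROX1 had 0 counts in both libraries. HHEX, a homeobox factor of early liver, had 131 counts in the resistant and 243 in the parental library, a ratio of 0.583 (0.468 to 0.724). GATA6, an endoderm factor that cooperates with FOXA proteins, had 550 and 387, a ratio of 1.54 (1.35 to 1.75), while GATA4 had 0 counts in both. NFIL3, a bZIP repressor gene, had the highest level of the list, 23.5 FPKM in the resistant and 20.8 FPKM in the parental library, followed by XBP1, the secretory-pathway factor gene, at 10.7 and 10.1 FPKM.

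**Figure D5:**
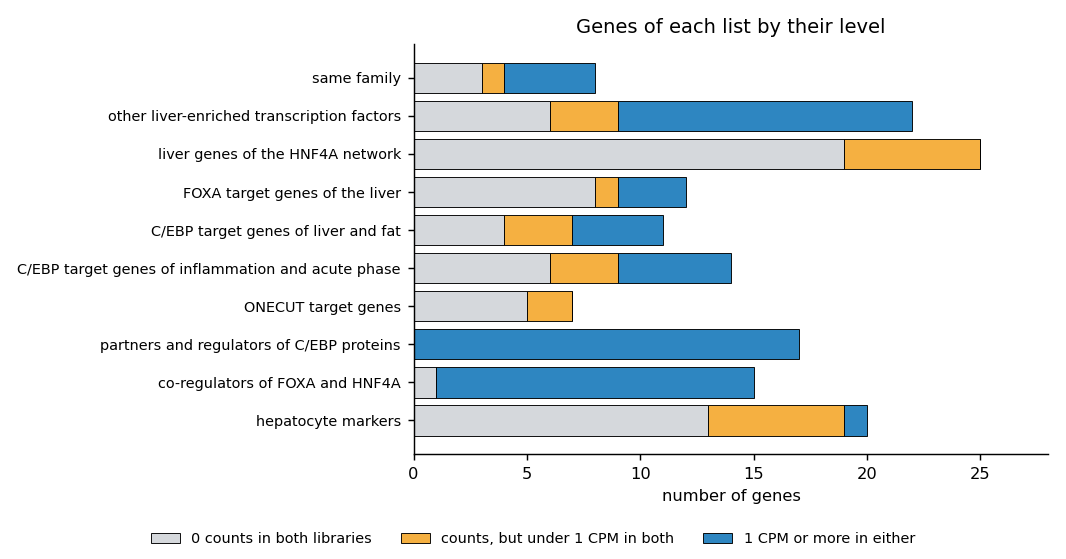
Number of genes in each list with 0 counts in both libraries (grey), with counts but under 1 CPM in both (orange), and with 1 CPM or more in either (blue). Of the liver genes of the HNF4A network none is blue, whereas all 17 partners and regulators of C/EBP proteins are.

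Markers of other cell types were read in the same way. Of 7 bile duct markers 2 were measured, KRT7 and CFTR, with summed levels of 2520.5 CPM in the resistant and 1898 CPM in the parental library that were nearly all KRT7. EPCAM had 0 counts in both, and KRT19 had 12 and 14. Of 9 stellate cell and fibroblast markers 6 were measured (407 CPM in the resistant, 399.8 CPM in the parental library) and LUM was higher by the size rule, at 216 and 93 counts, whereas COL1A2 and PDGFRA had 0 counts in both. Of 6 endothelial markers (6.03 CPM in the resistant, 2.76 CPM in the parental library) 2 were measured, and CDH5 was higher by the rule, at 72 counts in the resistant and 20 in the parental library, and KDR had 0 in both. With the FPKM plus 1, LUM (0.83) and CDH5 (0.34) are within the rule. All 7 pancreas markers had 0 counts in both libraries. Of 6 markers each, 1 was measured for intestine (LGR5), lung (NKX2-1) and macrophages and leukocytes (CD68), and PTPRC had 0 counts in both. For kidney tubule 2 of 6 were measured, PAX8 and LRP2, and for luminal breast 2 of 6, the keratins KRT8 and KRT18. The part of these cell types in the FOXA1 and CEBPA differences was not tested, and fewer cells with a message and less message per cell cannot be told apart in bulk RNA.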

How the data were processed

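Messenger RNA of 1 sorafenib-resistant and 1 parental culture was analysed from the authors' tables. The whole-number counts per gene are deposited without normalization, per the file headers. In 13649 genes checked, the deposited FPKM and the counts relative to library totals gave the same resistant to parental ratio, within a relative gap of 4.16e-05. A further deposited table gives the authors' log2 fold change with p-values and q-values, by a test not given in the sources used here; only the log2 fold change and the call were used. Per the submitters' processing notes, bcl2fastq 2.19, HISAT2 2.0.4 and StringTie 1.3.0 were used on GRCh38; strand and counting settings were not found there. In all, 10 further columns that repeat these values were not used.

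TMM scaling (edgeR 4.0.16, R 4.3.3) gave factors of 0.997 for the resistant and 1.003 for the parental library; no model was fitted. Ratio intervals are exact Clopper-Pearson 95% intervals of the 2 counts given their sum (SciPy 1.17.1), and level intervals are exact Poisson. They cover counting error only. DESeq2 1.42.0 gave alternative size factors. The calculation was tested on simulated data. Gene spans of all 8 members were identical in GENCODE 29. Motifs were searched on both strands. Some genes and a motif are not reported here and were left out of the lists.

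Members and lists were chosen with earlier results of these data known. Named were all members, in each list the genes past the size rule, otherwise the 2 with the largest difference and the 2 most abundant. Other genes named, among them the forkhead genes, CYP3A4, KRT19 and those at 0 counts, were chosen after their values were seen.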

Additional observations from a re-analysis of the deposited data

How the results depend on the processing

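No paired analysis was possible because each group has 1 library, and leaving out a library was not possible for the same reason. Over 9 alternative settings, 98 of 107 values for the members and the numbers of genes past the size rule were classed as close to those reported. None changed sign where past the size rule. Part of this closeness was fixed in advance. The filters on CPM leave every log2 ratio as it is, also for the other named genes below. Without a filter the numbers past the rule cannot change, since with 1 added no gene under 1 CPM in both libraries reaches it. FOXA2 has 0 counts in every setting, and the genes whose exons overlap CEBPA have 0 counts. FOXA1 remained lower by the size rule in each setting, with log2 ratios from -1.58 to -1.04, the last with the deposited FPKM plus 1. CEBPA ranged from -0.496 to -0.460, CEBPB from -0.039 to -0.021 and ONECUT2 from -0.026 to -0.0080. A pseudocount of 0.1 moved ONECUT1 to -1.24 and FOXA3 to 0.41, and one of 0.5 moved ONECUT1 to -0.47; both genes have at most 5 counts, and these shifts follow from the pseudocount. With no filter on CPM, 7 members counted as present in place of 4. Over all genes, 90 were higher and 78 lower with the FPKM, and 431 and 315 with the pseudocount of 0.1, against 192 and 146. With the pseudocount of 0.5 these numbers rose to 285 and 218, although they are among the values classed as close. For 30 other named genes, 11 of 240 values moved beyond counting error and none changed direction where past the rule; with the FPKM plus 1, PCK1, IGFBP1, LUM and CDH5 were within it, and with the pseudocount of 0.1, CFTR (-1.05) and TRIB2 (1.04) were past it. Depth limits FOXA2, FOXA3, HNF4A and ONECUT1, for which no difference between the libraries was detectable.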
